A study of Homo sapiens with 58 samples.

Results

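The fall of SOX9 from 25.8% to 8.14% of its level without degrader was examined in human cranial neural crest cells (CNCCs) by ATAC-seq, which reads out how accessible DNA is to a transposase. The members were chosen by their titles and treatment labels: 14 of the 58 samples of the series, all SOX9-tagged CNCCs after 48 h, of which 7 received 5 nM and 7 received 16 nM of the degrader dTAGV-1. Each 16 nM sample has a 5 nM partner of the same clone and differentiation, 4 pairs from clone S9CC13 (R6, R10, R13 and R14) and 3 from clone S9CC47 (R5, R6 and R8). Both clones were derived from H9, an established embryonic stem cell line, and carry on both alleles of SOX9 a C-terminal FKBP12-F36V degradation tag with mNeonGreen and V5, so every sample of both groups holds tagged SOX9 only, in DMSO as vehicle. The SOX9 percentages are those of the labels, and protein was not measured in these libraries. Over this step SOX9 lost 17.7 points of its starting level, a 3.17-fold fall. The step before, from 1.6 to 5 nM, lost 25.9 points (2.0-fold), and the step after, from 16 to 500 nM, lost 7.19 points (8.57-fold). All results rest on these 2 clones of 1 line.

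SOX9 is a transcription factor of the SOXE group, which bend DNA through an HMG domain that reads a short core sequence and which often bind as dimers to a pair of cores that face each other. In the neural crest it acts early in the formation of crest cells and later, with SOX5 and SOX6, switches on cartilage genes such as COL2A1. A regulatory element (RE) is here one of the 151,457 regions of open chromatin in which the authors counted reads. An RE that a factor holds open can close when that factor is removed.

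Sequence windows of fallen REs are shown first. Pairs of facing SOX cores (ACAAT, then 5 to 7 bases, then ATTGT) were more frequent in fallen REs than in all REs, as counted below. Each window was picked because its RE held such a pair, exact or with 1 mismatch. The fallen REs of TTLL4, TTYH1, HK1, ROR1, SOX6 and COL2A1 described below held no such pair, even with 1 mismatch. Capitals mark the 2 cores. The windows are the plus strand of hg38, with 40 bases on each side. In the first 4 REs, named by size of change or by gene, 1 of the 10 core letters departs from the pair.
ACTN4 intron, chr19:38722037-38722132: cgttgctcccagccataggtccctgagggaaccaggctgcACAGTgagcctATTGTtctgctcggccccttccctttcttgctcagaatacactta
AGPAT4 upstream region, chr6:161319462-161319556: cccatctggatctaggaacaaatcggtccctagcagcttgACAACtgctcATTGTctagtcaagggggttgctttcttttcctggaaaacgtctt
USP47 neighbour, chr11:11806838-11806933: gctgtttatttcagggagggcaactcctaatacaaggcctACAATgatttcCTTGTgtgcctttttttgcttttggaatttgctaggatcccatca
SOX5 intron, chr12:24020619-24020713: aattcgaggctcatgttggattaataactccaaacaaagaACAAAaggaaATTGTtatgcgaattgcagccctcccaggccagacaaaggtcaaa

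No RE named by size held a pair without a mismatch. The next 2 windows come from fallen REs that did, taken by smallest p after their values were seen.
PADI2 intron, chr1:17089638-17089733: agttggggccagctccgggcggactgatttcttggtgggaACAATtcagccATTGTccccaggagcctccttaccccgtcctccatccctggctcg
LRP11 intron, chr6:149831434-149831529: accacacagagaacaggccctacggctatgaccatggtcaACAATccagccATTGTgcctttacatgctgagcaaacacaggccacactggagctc

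For contrast, the last 2 windows come from REs that rose. They hold no facing pair, and capitals mark TAATTA, a core read by homeodomain factors. They were picked for these letters, which stood in 2 of the 8 risen REs named by size or p and also in the fallen REs of SOX5, COL2A1 and SIRT5 described below.
MKI67 neighbour, chr10:128326149-128326234: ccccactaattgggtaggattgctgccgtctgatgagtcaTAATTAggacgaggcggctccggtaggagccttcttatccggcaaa
INTS6L neighbour, chrX:135489773-135489858: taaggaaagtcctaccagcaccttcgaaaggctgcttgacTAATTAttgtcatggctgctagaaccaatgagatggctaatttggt

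The 14 libraries held 33.96 to 75.6 M counts (M, mega) in REs, and the median RE had 77 to 199 counts. Promoters of crest markers were open in both groups. Accessibility is given in CPM per kb, where CPM are counts scaled to the size of the library. Each marker gene was read at the most accessible of its promoter REs in each library. TFAP2A, TFAP2B, TWIST1, NR2F1, PRRX1, ALX1, DLX2 and SNAI2 had medians of 38.4 to 123 CPM per kb over the 14 libraries. The median over single promoter REs was 9.57 to 13.6, an unlike measure that takes no highest RE per gene. The mean over these 8 genes ran from 52.4 to 73.9 CPM per kb at 5 nM and from 53.7 to 75.4 at 16 nM. Of the stem cell markers NANOG had no promoter RE and POU5F1 had 2.17 CPM per kb at the median of the 5 nM libraries and 2.01 at 16 nM, while LIN28A reached 30.6 and 28.6. Means of the marker lists ran from 11.6 to 19.6 CPM per kb at 5 nM and 10.4 to 19.3 at 16 nM for stem cells (4 of 5 genes with a promoter RE), from 7.7 to 15.9 and 7.21 to 14.5 for neurons (5 of 5), and from 34.0 to 41.9 at both doses for smooth muscle (3 of 3). Within the smooth muscle list the medians at 5 and 16 nM were 75.3 and 80.1 for LMOD1, above those of TFAP2A (39.3 and 37.8). They were 32.8 and 27.6 for MYOCD and 2.84 and 2.74 for MYH11. For glia and melanocytes (4 of 6) the means of 50.6 to 61.5 and 50.8 to 63.5 came from PMEL, at 204 and 209, and SOX10 had medians of 2.56 and 2.69. The ranges of both doses overlapped for all 5 lists. In a bulk sample, fewer cells with an RE open and less opening per cell cannot be told apart.

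One library stood apart from its own replicate at other doses before any test. The 5 nM library of S9CC47_R6 held 69.94 M counts, against 44.2 to 55.24 M in the same replicate at 1.6, 16 and 500 nM. Promoter REs took 55.9% of its counts, against 47.3 to 52.6%, and the mean GC content of its counts was 56.7%, against 54.2 to 55.4%. Among the 5 nM libraries it was not the highest in counts or promoter share: S9CC47_R8 held 75.6 M counts and S9CC13_R10 had 56.8% in promoters. The deviations of the S9CC47_R6 library from the other 5 nM libraries correlated with those of its 16 nM partner at 0.234 over 127,039 REs, while the other 6 pairs lay between 0.646 and 0.909. Results are therefore given with this pair and without it.

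At 16 nM, 3481 REs (2.3% of those tested) differed from 5 nM at an adjusted p under 0.05 in the paired fit. The change was mostly closing: 2519 REs were lower (1.66% of all) and 962 higher (0.635%). Lower REs changed by a median log2 of -0.65, with quartiles at -0.91 and -0.46, and 483 of them fell at least 2-fold. Higher REs changed by a median of 0.43, with quartiles at 0.36 and 0.52, and 3 rose at least 2-fold. The median over all REs was 0.015. All 7 pairs had the direction of the call in 2135 lower REs (84.8%) and in 791 higher REs (82.2%). All 7 values at 16 nM lay below all 7 at 5 nM in 298 REs (0.197% of all), of which 289 were called lower. All 7 lay above in 12 REs (0.00792%), of which 5 were called higher.

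The number of calls rested on single pairs far more than the direction did. Without the S9CC47_R6 pair 5488 REs were called, 3852 lower (2.54% of all) and 1636 higher (1.08%), and these held 2449 of the 2519 lower REs and 870 of the 962 higher ones. Without S9CC13_R6, S9CC47_R5 or S9CC47_R8 the count fell to 1440, 1625 and 1271 REs. Correction of each library for GC content raised it to 6259. A fit with differentiation batch in place of the pairs called 1453 REs, and a fit without pairs called 115, all of them lower. No RE called in the paired fit was called in the opposite direction in any of them. The share of calls that were lower was 72.4% in the paired fit, 70.2% without the S9CC47_R6 pair, 68.1% with library totals as the scale, 90.6% with batch and 100% without pairs.

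**Figure D1:**
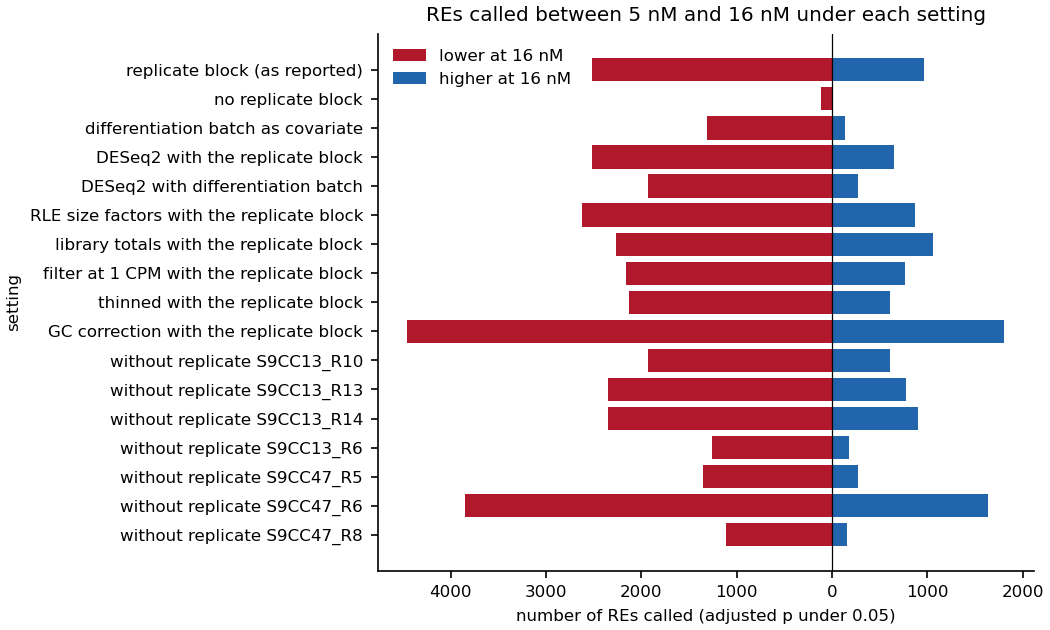
Number of REs called between 5 and 16 nM (x axis, adjusted p under 0.05) under each setting (y axis), with lower REs drawn to the left in red and higher REs to the right in blue. Lower REs outnumber higher ones in every setting, from 115 against 0 without pairing to 4454 against 1805 with a GC correction.

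Where the called REs lay was compared with classes taken from other libraries. The classes were REs lower or higher at 500 nM than at 0 nM after 48 h (7 samples each, same differentiations, other cultures, 16.8% and 13.9% of REs) and REs lower 3 h after 500 nM in a time course (7.43% of REs). None of these libraries belongs to the step. Of the 2519 lower REs, 2507 (99.5%) were lower at 500 nM, and 2302 (91.4%) were lower within 3 h. Of the 962 higher REs, 901 (93.7%) were higher at 500 nM but only 44 (4.57%) were among the 1381 REs that rose within 3 h (0.912% of all). Without the S9CC47_R6 pair the 4 shares were 99.1%, 82.9%, 91.3% and 4.65%. No RE called higher in the step was lower at 500 nM, and none called lower was higher there. At an unadjusted p under 0.05 these counts were 49 of 25,405 and 17 of 20,997, and DESeq2 called none.

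Most of the lower calls lay in an early class, the REs called lower at 3 h as well as at 500 nM. Of these 9516 REs, 2302 (24.2%) fell in this step, and 93.6% had a log2 change below 0. Their median change over REs was -0.275 ± 0.11 (SD, n = 7 pairs), from -0.397 to -0.125, and it lay below 0 in all 7 pairs. Of the 15,499 REs lower at 500 nM but not called at 3 h, 199 (1.28%) fell, and the median change was -0.088 ± 0.03 (SD, n = 7), from -0.128 to -0.0593. These 2 classes also differed in the size of their full change. From 0 to 500 nM the medians of single replicates ran from -1.22 to -0.734 in the early class and from -0.458 to -0.389 in the second. Small changes are called less often, and the 2 shares were not adjusted for size. The 20,529 REs higher at 500 nM and not called at 3 h held 853 risers (4.16%), with a median change of 0.141 ± 0.076 (SD, n = 7) and all 7 pairs above 0. The 105,055 REs not called at 500 nM moved by 0.021 ± 0.026 (SD, n = 7). With the S9CC47_R6 pair left out, 604 REs (3.9%) of the second class fell and 1407 (6.85%) of the third rose, so that the second class went from below the share of all REs (1.66%) to above it (2.54%). The 4 medians without that pair were -0.274 ± 0.12, -0.0933 ± 0.029, 0.12 ± 0.056 and 0.0135 ± 0.018 (SD, n = 6).

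**Figure D2:**
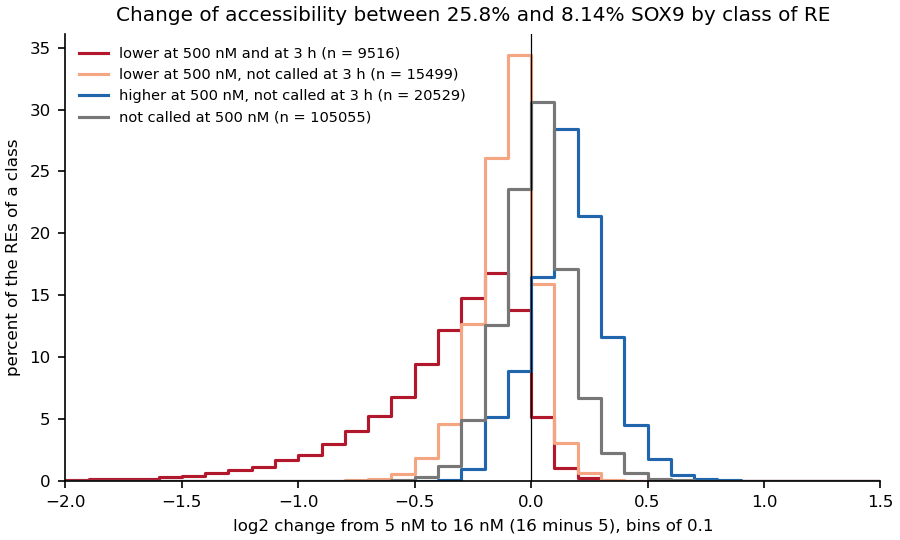
Distribution of the log2 change from 5 to 16 nM (x axis, bins of 0.1) as a percentage of the REs of each class (y axis). REs lower at both 500 nM and 3 h have a long tail of falls, REs lower at 500 nM alone sit just below 0 at a median of -0.088, and REs higher at 500 nM sit above 0 at a median of 0.16 (medians of the fitted changes).

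Set beside the other steps of the series, this step was neither the first nor the last in which the early class closed. Its median changes were -0.041 ± 0.095 from 0 to 0.5 nM, -0.131 ± 0.08 from 0.5 to 1.6 nM and -0.337 ± 0.09 from 1.6 to 5 nM, before the -0.275 of this step and -0.224 ± 0.076 from 16 to 500 nM (SD, n = 7 each). The pairs of this step and of the step before overlapped, at -0.397 to -0.125 and -0.454 to -0.208. The class not called at 3 h moved by -0.099 ± 0.046 in the step before, by -0.088 here and by -0.196 ± 0.058 in the step after. REs higher at 500 nM moved by 0.116 ± 0.033, 0.141 and 0.121 ± 0.087 in these 3 steps. Neighbouring steps share the libraries of 1 dose, and the classes were defined with the 0 and 500 nM libraries, so the first and last steps are not independent of them.

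**Figure D3:**
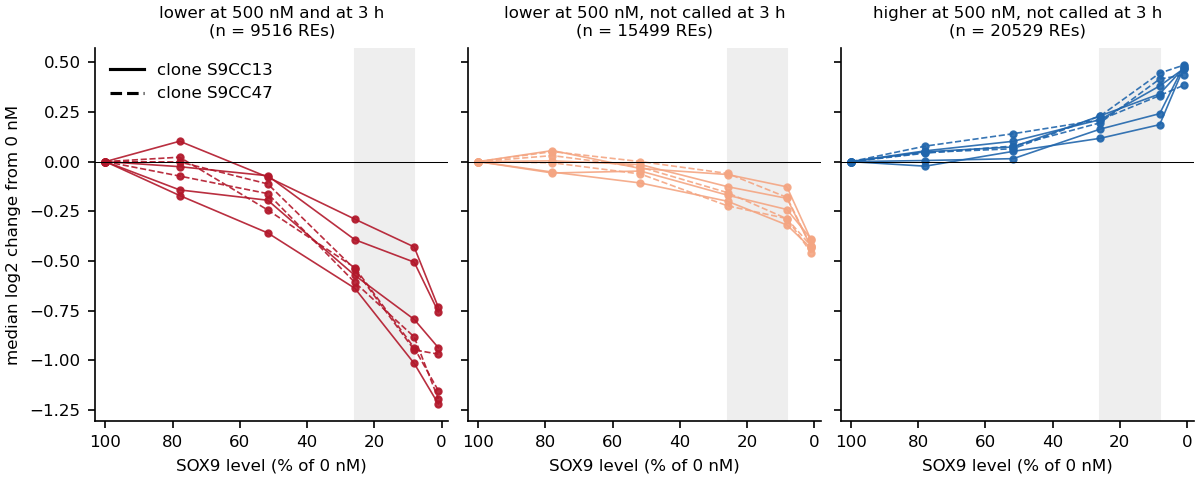
Median log2 change from 0 nM over the REs of 3 classes (y axis) against the SOX9 level of the labels (x axis, falling to the right), with 1 line per replicate, solid for clone S9CC13 and dashed for S9CC47. The shaded band is the step from 25.8% to 8.14%, in which all 7 lines fall in the first 2 classes and rise in the third.

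RE by RE, the change of this step was set against that of its neighbours by a contrast of the 2 log2 changes in 1 fit of 28 samples at 1.6, 5, 16 and 500 nM. No RE differed from the step before (0.0% of REs) by edgeR or DESeq2, and 6631 REs (4.38%) had an unadjusted p under 0.05. No RE could therefore be named as more or less responsive here than between 1.6 and 5 nM. One RE differed from the step after (0.00066%), where 16,718 REs (11.0%) had an unadjusted p under 0.05 and DESeq2 called 8. It lies at chr15:40081641-40082467, 23,619 bp from the nearest start site of BMF, a pro-apoptotic member of the BCL2 family. Accessibility there was 59.9, 64.9 and 76.8 CPM (lowest, median and highest of 7) at 5 nM and 52.9, 57.0 and 62.6 CPM at 16 nM, with overlapping groups. Its log2 change was -0.22 ± 0.055 (SE, adjusted p = 0.056) in this step and -0.80 from 16 to 500 nM, a difference of 0.57 ± 0.077 (SE, adjusted p = 0.0045). Means over the dose series were 71.2, 72.4, 69.9, 67.2, 57.3 and 33.1 CPM from 0 to 500 nM, so that most of its loss came below 8.14% SOX9. The step itself was called there when the S9CC47_R6 pair was left out (-0.26, adjusted p = 8.3e-06).

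Among REs with a mean of at least 50 counts and 1 direction in all pairs, large falls lay in or near ACTN4, TTLL4, AGPAT4, USP47 and TTYH1, 5 of the 6 REs named by size. An intronic RE of ACTN4, the gene of the actin cross-linker alpha-actinin-4 (chr19:38721937-38722437), had 3.53, 7.15 and 12.2 CPM (lowest, median and highest) at 5 nM and 0.82, 1.37 and 2.25 CPM at 16 nM (-2.32 ± 0.23, SE, adjusted p = 0.001). The promoter RE of TTLL4, a tubulin polyglutamylase (chr2:218745777-218746277), went from 2.8, 3.95 and 6.86 CPM to 0.22, 0.885 and 1.7 CPM (-2.20 ± 0.21, SE, adjusted p = 0.001). The groups did not overlap in either. The RE at chr6:161319140-161319640, 45,079 bp from the start of AGPAT4, an acyltransferase of phospholipid synthesis, had 1.72, 2.76 and 7.71 CPM at 5 nM and 0.573, 0.673 and 1.43 CPM at 16 nM (-1.99 ± 0.26, SE, adjusted p = 0.0019). At chr11:11806207-11807089, 34,334 bp from the start of the deubiquitinase gene USP47 and in an intron of a long non-coding RNA gene, values of 1.08, 2.23 and 5.52 CPM became 0.28, 0.629 and 1.16 CPM (-1.92 ± 0.25, SE, adjusted p = 0.0019). This was the only one of the 5 in which the groups overlapped. The promoter RE of TTYH1, of the tweety family of membrane proteins (chr19:54420159-54420659), had 6.01, 7.08 and 13 CPM at 5 nM and 1.21, 1.89 and 3.35 CPM at 16 nM (-1.91 ± 0.2, SE, adjusted p = 0.001).

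These 5 had already closed in part before this step. Their means at 5 nM lay between 2.43 and 7.8 CPM, against 8.54 to 26.3 CPM at 0 nM, and at 16 nM between 0.649 and 2.15 CPM. All 5 were called lower at 3 h, with log2 changes of -3.99 to -2.76. At ACTN4, TTLL4 and TTYH1 the highest 5 nM value was that of S9CC47_R6, the library that stood apart. In cells without the tag, 500 nM dTAGV-1 changed them by 0.15 to 0.33, upwards. By edgeR the changes passed the threshold at ACTN4 (0.27, adjusted p = 0.045) and TTYH1 (0.33, adjusted p = 0.024). That fit had 4 untagged samples, and DESeq2 called 0 REs in them.

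**Figure D4:**
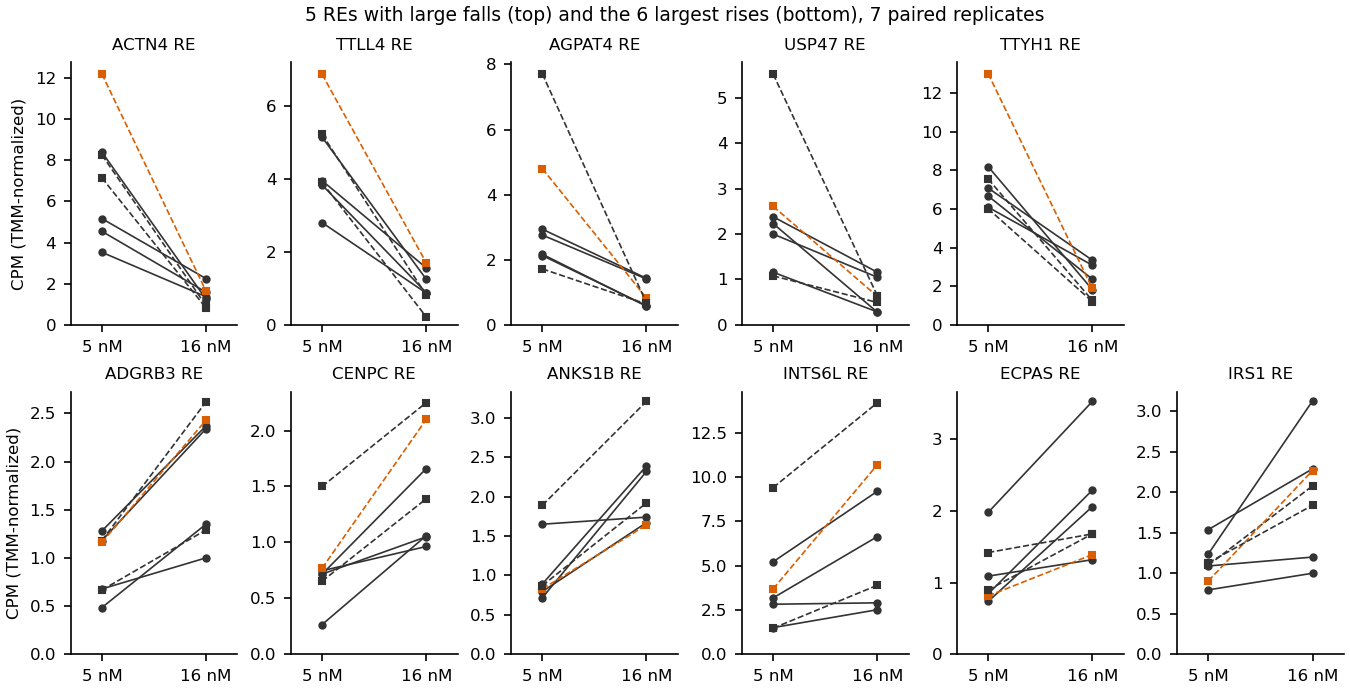
Accessibility in CPM (y axis, from 0) of these 5 fallen REs (top) and the 6 with the largest rises (bottom) at 5 and 16 nM (x axis), with 1 line per pair. Solid lines with circles are clone S9CC13, dashed lines with squares are S9CC47, and orange is the S9CC47_R6 pair; all 7 lines run in 1 direction in every panel.

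The falls with the smallest p had smaller changes and smaller SEs than those named by size, which follows from how each set was picked. The first was an intronic RE of HK1, the gene of hexokinase 1 (chr10:69321755-69322255), with 2.94, 4.15 and 6.07 CPM at 5 nM and 1.33, 1.85 and 2.72 CPM at 16 nM, without overlap (-1.09 ± 0.085, SE, adjusted p = 0.0008). The second, 1410 bp from the start of ROR1, a receptor tyrosine kinase-like protein that binds WNT5A (chr1:63771895-63772607), had 8.6, 15.1 and 19.6 CPM at 5 nM and 4.24, 7.29 and 10.0 CPM at 16 nM (-0.94 ± 0.082, SE, adjusted p = 0.001). The third was the promoter RE of RGR, which encodes a retinal opsin (chr10:84244578-84245078), at 1.67, 3.32 and 7.42 CPM and then 0.917, 1.85 and 2.61 CPM (-1.23 ± 0.11, SE, adjusted p = 0.001). The groups overlapped at ROR1 and RGR, while all 7 pairs fell. The RGR RE rose in untagged cells at 500 nM by edgeR (0.34, adjusted p = 0.0045) but was not called there by DESeq2.

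Among REs with an exact facing pair, the 3 with the smallest p all fell in 7 of 7 pairs, with overlapping groups. The RE over an exon of SIRT5, a mitochondrial deacylase (chr6:13604474-13605419), fell from 2.67, 6.58 and 13.9 CPM to 1.28, 3.08 and 4.38 CPM (-1.23 ± 0.11, SE, adjusted p = 0.001). The intronic RE of PADI2, a peptidylarginine deiminase (chr1:17089533-17090033), fell from 2.41, 3.92 and 6.3 CPM to 1.3, 2.17 and 2.63 CPM (-0.97 ± 0.11, SE, adjusted p = 0.0013). The intronic RE of LRP11, of the LDL receptor family (chr6:149830827-149831704), fell from 12.5, 24.0 and 28.9 CPM to 5.52, 13.3 and 17.4 CPM (-0.82 ± 0.096, SE, adjusted p = 0.0014). From 16 to 500 nM the LRP11 RE moved by a further -1.21 and the PADI2 RE by -0.51, in the fit of 28 samples. The differences from this step did not pass the threshold (adjusted p = 0.43 and 0.46).

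The rises were smaller. The 6 largest lay in introns of ADGRB3, ANKS1B and ECPAS and near CENPC, INTS6L and IRS1, with log2 changes of 0.82 to 1.03 and all 7 pairs higher, and in none of them were the groups apart. The RE in ADGRB3, an adhesion G protein-coupled receptor gene (chr6:69012127-69012627), had 0.484, 1.16 and 1.28 CPM at 5 nM and 1.0, 2.34 and 2.62 CPM at 16 nM (1.03 ± 0.12, SE, adjusted p = 0.0012). An intergenic RE 900,185 bp from the start of CENPC, the gene of a centromere protein (chr4:66594516-66595016), had 0.265, 0.716 and 1.5 CPM and then 0.963, 1.39 and 2.25 CPM (1.01 ± 0.17, SE, adjusted p = 0.0063). The RE in ANKS1B, which encodes a postsynaptic adaptor (chr12:98827051-98827551), had 0.716, 0.871 and 1.89 CPM and then 1.64, 1.92 and 3.21 CPM (1.00 ± 0.16, SE, adjusted p = 0.0041).

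At chrX:135489486-135489986, 30,673 bp from the start of INTS6L, values of 1.47, 3.18 and 9.41 CPM became 2.51, 6.64 and 14.2 CPM (0.92 ± 0.14, SE, adjusted p = 0.0038). The RE in ECPAS, the gene of a proteasome adaptor (chr9:111401342-111401842), had 0.737, 0.897 and 1.98 CPM and then 1.32, 1.68 and 3.53 CPM (0.86 ± 0.15, SE, adjusted p = 0.0077). The RE 270,424 bp from the start of IRS1, the insulin receptor substrate gene (chr2:226524322-226524822), had 0.795, 1.1 and 1.54 CPM and then 1.0, 2.08 and 3.13 CPM (0.82 ± 0.15, SE, adjusted p = 0.0098), and its call was lost without S9CC13_R6 (adjusted p = 0.057). The INTS6L RE spread most among replicates, and S9CC47_R5 was its highest library at both doses.

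By p, the ADGRB3 RE was joined by an RE 199,617 bp from the start of MKI67, which encodes the proliferation antigen Ki-67 (chr10:128326040-128326540). It rose from 0.824, 1.46 and 4.83 CPM to 1.14, 2.56 and 8.67 CPM (0.76 ± 0.079, SE, adjusted p = 0.001). The third, 469,627 bp from the start of SPRY1, an inhibitor of FGF signalling, and in an intron of the non-coding gene LINC01091 (chr4:123869595-123870095), rose from 10.1, 15.5 and 32.2 CPM to 12.7, 22.3 and 41.2 CPM (0.52 ± 0.068, SE, adjusted p = 0.0019). None of these 8 risers was called at 3 h (adjusted p from 0.11 to 0.97), and all were higher at 500 nM, by 1.36 to 2.2 on the log2 scale. The SPRY1 RE was lower in untagged cells at 500 nM by edgeR (-0.49, adjusted p = 0.049) but was not called there by DESeq2.

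Of the REs in the chondrogenic partners of SOX9, 3 of 48 were lower in SOX5 and 1 of 48 in SOX6, where 1.66% of all REs were lower. For SOX6 that is near the share of all REs. The strongest in SOX5 (chr12:24020504-24021004) had 1.23, 1.99 and 4.51 CPM at 5 nM and 0.834, 1.23 and 2.04 CPM at 16 nM (-0.91 ± 0.16, SE, adjusted p = 0.0098, 6 of 7 pairs lower). That in SOX6 (chr11:16001383-16002368) had 3.91, 6.69 and 8.61 CPM and then 3.26, 4.31 and 5.09 CPM (-0.57 ± 0.12, SE, adjusted p = 0.019, 6 of 7 pairs lower). It was higher in untagged cells at 500 nM by edgeR (0.47, adjusted p = 0.0009) but was not called there by DESeq2. The other SOX5 REs fell by 0.78 and 0.38 on the log2 scale. The calls at the first SOX5 RE and the SOX6 RE were lost without S9CC13_R6 (adjusted p = 0.061 and 0.085), S9CC47_R5 (0.055 and 0.076) or S9CC47_R8 (0.059 and 0.1), and in the fit with differentiation batch in place of the pairs (0.096 and 0.056). At the promoter RE of SOX9 itself (chr17:72119993-72121187) values were 37.9, 46.1 and 53.2 CPM at 5 nM and 38.2, 46.4 and 58.4 CPM at 16 nM (0.03 ± 0.047, SE, adjusted p = 0.8), with 4 of 7 pairs higher.

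Cartilage matrix genes gave 5 lower and 1 higher of 135 REs (3.7% and 0.741%, against 1.66% and 0.635% of all REs), and 7 and 1 without S9CC47_R6. COL2A1, the main collagen of cartilage, had 2 lower of 6 REs. Its promoter RE (chr12:47988324-47988824) went from 18.5, 27.8 and 39.7 CPM to 12.3, 22.4 and 29.4 CPM (-0.40 ± 0.075, SE, adjusted p = 0.012, 7 of 7 pairs), with adjusted p of 0.061 without S9CC13_R6 and 0.051 without S9CC47_R5. An intronic RE changed by -0.28 ± 0.057 (SE, adjusted p = 0.019). Promoter REs fell at COL9A2 (-0.28 ± 0.054, SE, adjusted p = 0.016) and COL9A3 (-0.68 ± 0.098, SE, adjusted p = 0.0028), which encode chains of collagen IX, and at CNMD, the chondromodulin gene (-0.93 ± 0.2, SE, adjusted p = 0.025). The CNMD RE has a mean of 25.6 counts, and its adjusted p was 0.052 without the pair S9CC47_R6. An intronic RE of COL27A1, a fibrillar collagen gene, rose (0.31 ± 0.072, SE, adjusted p = 0.039).

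No RE was called in COL9A1, COL11A1 or ACAN. The RE with the smallest p in each had a log2 change of 0.47 in COL9A1 (adjusted p = 0.13), 0.32 in COL11A1 (adjusted p = 0.24) and -0.34 in ACAN (adjusted p = 0.27), on 43.4 to 55.9 counts a library. In SOX10 (2 REs) the value was -0.23 (adjusted p = 0.54). For the crest factors TWIST1 (7 REs), TFAP2A (8) and ALX4 (11) the values were -0.10 (adjusted p = 0.52), -0.18 (adjusted p = 0.15, 7 of 7 pairs lower) and -0.19 (adjusted p = 0.34). In RUNX2, the osteoblast master factor, 1 of 33 REs rose (chr6:45630628-45631128), from 0.769, 1.27 and 1.99 CPM to 1.68, 1.86 and 2.74 CPM (0.59 ± 0.13, SE, adjusted p = 0.027, 7 of 7 pairs). That call was lost when S9CC13_R10, S9CC13_R13, S9CC13_R14, S9CC47_R5 or S9CC47_R8 was left out (adjusted p from 0.052 to 0.11), and with differentiation batch in place of the pairs (0.17 by edgeR, 0.11 by DESeq2).

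Across 13 lists of genes with 1528 REs, 35 REs were lower (2.3%, against 1.66% of all REs) and 11 higher (0.72%, against 0.635%). Leaving out the S9CC47_R6 pair gave 54 lower and 16 higher. The list medians lay between -0.083 (neuron genes) and 0.069 (smooth muscle genes) on the log2 scale, beside 0.015 over all REs. Chondrogenic factors had 4 lower and 2 higher of 157 REs (2.55% and 1.27%; 7 and 2 REs without S9CC47_R6), the risers both in TRPS1, a GATA-type repressor of chondrocyte maturation (0.54 and 0.34). The first of these lost its call without the S9CC47_R6 pair (adjusted p = 0.051). Chondroitin sulfate enzymes had 2 lower and 1 higher of 141 (1.42% and 0.709%), and 2 and 2 without S9CC47_R6. Their lower REs were in CHST11, a chondroitin sulfotransferase (-0.39 ± 0.072, SE), and CSGALNACT1, which starts chondroitin chains (-1.38 ± 0.19, SE, on a mean of 21.3 counts), and the higher one was also in CSGALNACT1 (0.40 ± 0.09, SE).

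Cranial neural crest factors had 5 lower and 0 higher of 180 REs (2.78% and 0.0%, against 1.66% and 0.635% of all REs), with 6 higher at an unadjusted p under 0.05 and 0 by DESeq2. Without S9CC47_R6 there were 8 lower and 0 higher, where the share of all REs that were lower was 2.54%. The 5 were in ETS1 and PAX7, both early crest factors. The strongest was an intronic RE of ETS1 (chr11:128552879-128553379), which fell from 1.74, 2.67 and 4.01 CPM to 0.741, 0.86 and 1.25 CPM, without overlap (-1.56 ± 0.15, SE, adjusted p = 0.001). A neighbouring ETS1 RE changed by -1.13 ± 0.2 (SE, adjusted p = 0.0099) and another by -0.42 ± 0.079 (SE, adjusted p = 0.014). The PAX7 REs fell by 0.30 and 0.21 on the log2 scale.

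Genes of AP-1 and of the YAP pathway, a growth-control pathway that acts through TEAD factors, had 6 lower and 0 higher of 133 REs (4.51% and 0.0%, against 1.66% and 0.635% of all REs), with 8 higher at an unadjusted p under 0.05 and 0 by DESeq2. None of the 6 was in an AP-1 gene. They were in YAP1 (-0.79 ± 0.16, SE), TEAD1 (-0.47 ± 0.07 and -0.36 ± 0.065, SE) and WWTR1, which encodes the YAP partner TAZ (-0.72 ± 0.12, -0.39 ± 0.066 and -0.30 ± 0.065, SE). The deepest, an intronic WWTR1 RE with a mean of 2320 counts, had 35.9, 51.6 and 65.2 CPM at 5 nM and 25.1, 38.8 and 53.0 CPM at 16 nM.

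The hedgehog list had 3 lower and 1 higher of 161 REs (1.86% and 0.621%), near the shares of all REs (1.66% and 0.635%), with the same counts without S9CC47_R6. GLI2, a transcription factor of the pathway, held 1 (-0.78 ± 0.082, SE, adjusted p = 0.001, from 6.32, 11.9 and 16.9 CPM to 4.09, 6.21 and 8.97 CPM). BOC, a hedgehog co-receptor, held 1 in each direction (-0.74 ± 0.087 and 0.46 ± 0.1, SE). The promoter RE of PTCH1, the hedgehog receptor, was lower here (-0.41 ± 0.097, SE, adjusted p = 0.044) but had 2.83 CPM at 0 nM, 2.06 at 16 nM and 2.62 at 500 nM on average, and lost its call without the S9CC47_R6 pair (adjusted p = 0.057).

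The BMP and TGF-beta list had 4 lower and 3 higher of 245 REs (1.63% and 1.22%, against 1.66% and 0.635% of all REs). With all pairs, its lower share was thus near that of all REs. The counts were 9 and 5 without S9CC47_R6, where 2.54% of all REs were lower and 1.08% higher. Both shares of the list then lay above those of all REs. The lower ones were 3 in BMP7, a BMP ligand (-0.43, -0.41 and -0.24), and 1 in BMPR1B, a BMP receptor (-1.08 ± 0.15, SE, adjusted p = 0.0023). The higher ones were the promoter RE of the ligand TGFB3 (0.60 ± 0.096, SE, adjusted p = 0.0047), the promoter RE of BMPR1B (0.36 ± 0.085, SE) and an exonic RE of BMP7 (0.27 ± 0.064, SE), so that BMP7 and BMPR1B each held REs of both directions. The FGF list had 1 lower of 89 REs (1.12%), in the pathway inhibitor SPRY4 (-0.27 ± 0.063, SE), and 1 higher, in the receptor FGFR2 (0.42 ± 0.1, SE).

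Glial and melanocyte genes had 4 lower and 0 higher of 68 REs (5.88% and 0.0%, against the same shares of all REs), with 3 higher at an unadjusted p under 0.05 and 0 by DESeq2. Of the lower REs, 3 were in ERBB3, a neuregulin receptor (-1.07 ± 0.14, SE, adjusted p = 0.0018), TRPM1, a melanocyte cation channel (-0.27 ± 0.049, SE), and GFAP, the glial intermediate filament (-0.46 ± 0.095, SE). Osteoblast genes had 1 lower of 101 REs (0.99%), at the promoter of PHEX, a regulator of phosphate (-0.48 ± 0.089, SE), and the RUNX2 riser (0.99%), and 2 lower and 3 higher without S9CC47_R6. Pluripotency genes had 1 higher of 31, in an intron of LIN28B, an RNA-binding protein (0.39 ± 0.081, SE), and 0 lower (2 at an unadjusted p under 0.05, 0 by DESeq2). Neuron genes had 0 of 45 in either direction (5 lower and 1 higher at an unadjusted p under 0.05, 0 by DESeq2). Smooth muscle genes had 0 of 42 (2 lower and 7 higher unadjusted, and 1 lower by DESeq2). Without S9CC47_R6 each of these 3 lists (pluripotency, neuron and smooth muscle) had 1 lower RE.

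By nearest protein-coding gene, the 2519 lower REs were spread over 1854 genes, of which 1412 had 1, and the 962 higher REs over 810 genes, of which 686 had 1. The most lower REs were nearest to RAD51B, a recombination protein gene (9 of 63 REs), and SLC39A11, a zinc transporter gene (8 of 52). ADGRL2, PREX1 and SIRPA followed with 7 each, of 115, 81 and 26 REs. Over all REs 1.66% were lower and 0.635% higher. Nearest to ADGRL2, 3 other REs were higher, and the median over its 115 REs was 0.005. Nearest to PREX1, 1 other RE was higher. The 8 REs around SLC39A11 lie at chr17:72571888-73043507 and changed by -1.54 to -0.28. The promoter RE of SOX9 is on the same chromosome (chr17:72119993-72121187), and whether these 8 act on SOX9 was not tested. Changes of the 9 REs around RAD51B (chr14:68308607-68659828) ran from -1.17 to -0.25. Those of the 7 around SIRPA, a receptor of CD47 (chr20:1811115-1896188), ran from -1.10 to -0.31, and the median over all 26 REs of SIRPA was -0.23. The most higher REs were nearest to ANO2, ATP5MC3, JARID2, LUZP2 and NR2F1, a tie at 4 each, of 32, 20, 77, 51 and 86 REs. These rankings are by count and were not scaled to the number of REs nearest to a gene. The 4 of NR2F1, a nuclear receptor of the crest, lay at least 259,798 bp from its start sites and rose by 0.48 to 0.64, and another RE nearest to NR2F1 fell.

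Fallen and risen REs differed in place and sequence. Promoter REs were 23.3% of all REs, 12.6% of lower REs (318) and 4.68% of higher REs (45). In the fit without the S9CC47_R6 pair, whose 5 nM library had a higher promoter share than the same replicate at other doses, they were 13.2% and 7.64%. The median GC content was 47.3% in lower, 43.6% in higher and 48.1% in all REs. Shares of REs that hold a motif are given below with exact 95% binomial intervals, which cover counting error only, and letters were searched on both strands.

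The SOX core ACAAT stood in 71.5% of lower REs (69.7 to 73.3%), 64% of higher REs (60.9 to 67.1%) and 54.5% of all REs. The facing pair stood in 68 lower REs (2.7%, 2.1 to 3.41%), in 0 of 962 higher REs (upper limit 0.383%) and in 0.242% of all REs. With at most 1 mismatch in the 10 core letters it was found in 22.5% of lower REs (20.9 to 24.2%), 5.2% of higher REs (3.88 to 6.8%) and 5.78% of all REs. The same cores turned outward (ATTGT, 5 to 7 bases, ACAAT) stood in 0.238%, 0.312% and 0.174%, and with at most 1 mismatch in 5.84% (4.95 to 6.82%), 7.28% and 4.84%. With REs split into 3 equal parts by GC content, at 44.1% and 53.1%, the facing pair with at most 1 mismatch was in 29.3%, 20.0% and 17.5% of lower REs, against 10.2%, 5.27% and 1.82% of all REs, from the lowest part to the highest. In these parts the SOX core was in 73.0%, 57.6% and 33.8% of higher REs, near the 74.4%, 57.7% and 31.4% of all REs. In lower REs it was in 84.2%, 71.4% and 55.8%.

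Higher REs held TAATTA more often, in 31.2% (28.3 to 34.2%) against 14.8% of lower and 14.7% of all REs. In the same 3 parts the shares were 38.1%, 24.1% and 18.9% of higher REs, against 25.8%, 13.2% and 4.97% of all REs. The AP-1 site TGANTCA was in 25.4% of higher REs (22.6 to 28.2%), 18.7% of lower REs and 16.7% of all REs, and the site CNAGGGGGC of the insulator protein CTCF was in 1.66%, 2.94% and 4.64%. The E-box CAGATG that TWIST1 can bind was in 52.5% of lower and 51.9% of higher REs, against 44.3% of all REs. The site GCCNNNGGC of TFAP2 was in 24.0% of lower, 23.1% of higher and 27.1% of all REs. In the same 3 parts by GC content it was in 17.7%, 25.7% and 47.3% of higher REs. The shares were 11.2%, 21.7% and 43.3% of lower REs, and 10.3%, 21.4% and 49.7% of all REs. The smaller TFAP2 share of higher REs was thus not seen in the lowest and middle parts. In lower, higher and all REs, AGGTCA of nuclear receptors was in 41.5%, 45.0% and 36.2%. CATTCC of TEAD was in 36.2%, 35.1% and 33.3%, and TGTGGTT of RUNX in 12.4%, 13% and 10.3%. A match is a run of letters and does not show that the factor was bound.

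**Figure D5:**
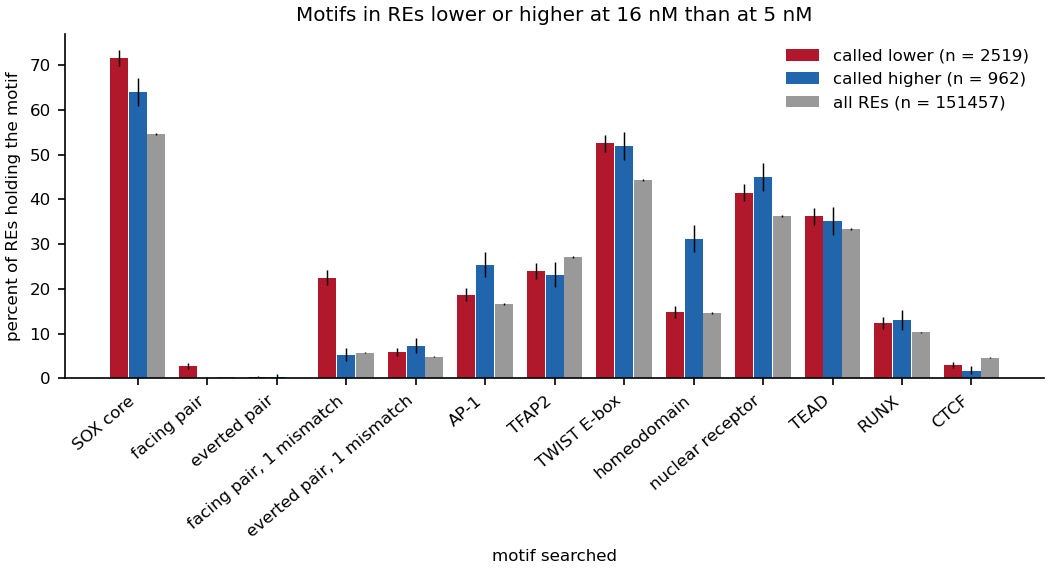
Percent of REs that hold each motif (y axis, from 0) in REs called lower, called higher and all REs, with exact 95% binomial intervals as bars. The facing pair with at most 1 mismatch is in 22.5% of lower REs against 5.78% of all REs, and the homeodomain letters are in 31.2% of higher REs against 14.7% of all REs.

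The effect of the compound without the tag was measured in 4 untagged samples at 48 h, 2 with 500 nM and 2 with vehicle. There 459 REs (0.303%) were called by edgeR and 0 by DESeq2. Of the 2519 lower REs of the step, 102 (4.05%) were among them, 96 higher and 6 lower with the compound, and the median change over the lower REs was 0.13. Of the 962 higher REs, 2 were called (0.208%), both lower, and the median was -0.015. The dose in untagged cells was 500 nM, above those of the step.

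The clones were compared by an interaction of clone and dose. No RE differed (0.0%) by edgeR or DESeq2, with 10,927 REs at an unadjusted p under 0.05. Without the S9CC47_R6 pair 163 REs differed (0.108%), 162 of them with the lower value in S9CC47. Among these 163, 154 were called lower in the step and 162 were lower at 500 nM. Their median change was -0.70 in the 4 pairs of S9CC13 and -1.57 in the S9CC47 pairs. Over the 9516 REs of the early class, the median change was -0.215 ± 0.11 (SD, n = 4, from -0.36 to -0.125) in S9CC13 and -0.355 ± 0.064 (SD, n = 3, from -0.397 to -0.282) in S9CC47, with overlapping ranges. In the fits of 1 clone, 1391 REs were called in S9CC13 (1233 lower) and 502 in S9CC47 (501 lower). Clone and differentiation are separated only in R6, the one differentiation that both clones share.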

How the data were processed

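The data are ATAC-seq of SOX9-tagged H9-derived CNCCs. The authors deposited counts, whole numbers of reads per RE and sample without normalization. Per their methods and the labels, reads were aligned to hg38 (Bowtie2 2.4.1) and filtered, summits called with MACS2 2.2.7.1 were merged over samples into 151,457 REs, and reads were counted per sample without pooling. Samples were grouped by titles. Counts in the 14 samples were compared with edgeR 4.0.16 (R 4.3.3; TMM, trended dispersion, quasi-likelihood F test, no filter, Benjamini-Hochberg adjusted p under 0.05) with replicate, the clone and differentiation of the titles, as a block. Pairs were taken from the titles. Same-numbered libraries deviated together from the mean of their dose in all 7 pairs (correlations 0.234 to 0.909), most weakly in S9CC47_R6. The mean of other pairs (-0.115) lies below 0 through this centring and adds nothing to the pairing. Standard errors come from the F statistic. CPM are TMM-normalized over the 42 dose samples. Class and list medians of log2 CPM used a pseudocount of 0.1 CPM.

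REs were annotated with GENCODE release 44 on hg38, starts written from 1, promoters within 1000 bp of a start site of a protein-coding or lncRNA gene. An RE belongs to a list by overlap with a gene or its promoter, which does not show that it regulates that gene. Members, gene lists and the rule for named REs were chosen with earlier results of these data known. The rule took the 6 largest falls and rises (mean of at least 50 counts, all pairs in 1 direction), the 3 smallest p per direction, REs that differed from the step before (none), the RE of smallest p in each of 12 genes, and the genes nearest to most called REs. One RE that this rule names is not reported here. The BMF RE and the 3 REs with exact facing pairs were added after their values were seen. No window that touches an annotated UTR is printed. Counts of this step were also simulated over 151,457 REs, from the trended dispersion. In them 50 REs were altered at each size of change, all with a mean of at least 50 counts. Of REs changed 1.25-fold 8% were called, of those changed 1.5-fold 86% and of those changed 2-fold 100%, and 4 unchanged REs were called. The simulated counts held no spread particular to single REs and no library that departed from its replicate, as that of S9CC47_R6 did. The shares called in the real data can be lower. An RE that was not called can therefore still have changed. Replicates of a dose differed by more than counting error (reduced chi-square of at least 2.6 in all 42 pairs), so none was counted as a duplicate. The p-values measure the spread between cultures of 2 clones. In the time course (6 samples, 2 differentiations), columns of R5 name clone S9CC47 where titles name S9CC13; they were matched by differentiation, treatment and time. For S9CC13_R14 the concentration labels at 0 and 0.5 nM are swapped against the titles, and titles were used. All 58 columns were matched to samples, and the untagged time course was not used here. Alternatives were DESeq2 1.42.0, batch or no block, size factors or totals, a filter of 1 CPM in 7 libraries, thinning, GC correction and leaving out each pair.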

Additional observations from a re-analysis of the deposited data

Results flagged for a closer look

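Of 75 groups of 7 libraries searched for an outlying sample, 5 held one, where chance alone gives about 1 in 20, or 3.8. At 5 nM the USP47 RE had 5.52 CPM in S9CC47_R8 and the SIRT5 RE 13.9 CPM in the same library, each far above the other libraries. The TTYH1 RE had 13 CPM at 5 nM in S9CC47_R6, the library that stood apart from its own replicate in depth, promoter share and GC content. The CENPC RE had 1.5 CPM at 5 nM in S9CC47_R5. The LRP11 RE had 5.52 CPM at 16 nM in S9CC13_R10, far below the others, which was also its lowest library at 5 nM. All 5 REs changed in 1 direction in all 7 pairs.

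The step differed between the clones at 163 REs when the S9CC47_R6 pair was left out, and at 0 REs with it, in edgeR's interaction test. DESeq2 with all pairs called 0. The comparison without that pair sets 4 differentiations of S9CC13 against 2 of S9CC47, and clone and differentiation cannot be told apart in it.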

How the results depend on the processing

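The numbers of calls depended on how the pairing was modelled. The 3481 calls became 115 with no replicate block, 1453 with differentiation batch, 2195 with DESeq2 and batch, 6259 with a GC correction and 1271 to 5488 when each pair was left out. DESeq2 with the block (3163), other size factors (3494), library totals (3322), a filter (2927) and thinning (2742) stayed within 1.5 times. In the order no block, batch, GC correction and lowest to highest with a pair left out, lower calls among REs lower at 3 h (2302) were 115, 1293, 3735 and 1082 to 3195, among REs lower at 500 nM (2507) 115, 1316, 4400 and 1108 to 3819, and among promoter REs (318) 22, 176, 534 and 156 to 507. In the order no block, batch, DESeq2 with batch, GC correction and pairs left out, the 46 calls in gene lists were 3, 17, 25, 76 and 14 to 70. With thinning placed before the GC correction, higher calls among REs higher at 3 h (44) were 0, 5, 11, 29, 85 and 6 to 76, and among REs higher at 500 nM (901) 0, 136, 267, 578, 1648 and 156 to 1494.

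The single difference from the step after was 0 with no block, 8 with DESeq2 and 2 with library totals. The clone difference of 0 became 163 without S9CC47_R6. Fits within a clone, with fewer samples, called 1391 REs in S9CC13 and 502 in S9CC47, and DESeq2 called 0 REs in untagged cells. The SOX core was in 69.1% of lower REs of the commonest width, and in 84.2% and 55.8% in the lowest and highest part by GC content. There the facing pair was in 3.89% and 1.62%. TAATTA was in 38.1%, 24.1% and 18.9% of higher REs from the lowest GC part to the highest. Of 24 named and called REs, 18 lost their call with no block, 3 with batch (SOX5, SOX6 and RUNX2), 1 with DESeq2 and batch (RUNX2), and at most 4 when a pair was left out. SOX5 and SOX6 were lost without S9CC13_R6, S9CC47_R5 or S9CC47_R8, COL2A1 without S9CC13_R6 or S9CC47_R5, IRS1 without S9CC13_R6, and RUNX2 without S9CC13_R10, S9CC13_R13, S9CC13_R14, S9CC47_R5 or S9CC47_R8. None reversed. The causes were not tested. GC parts and the clone fit without S9CC47_R6 were chosen after seeing the data.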

Other observations

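Calls outside the REs that respond to full depletion were few. Of the 105,055 REs not called at 500 nM, 12 were lower in the step (0.476% of the lower calls) and 61 higher (6.34% of the higher calls). Without the S9CC47_R6 pair the counts were 33 and 142.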
